A study of Mus musculus with 9 samples.

Results

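The extracellular matrix of the aorta was followed here through 34 genes of non-collagen matrix proteins, in mice with and without BMAL1, the transcription factor encoded by Arntl that switches on the genes of the circadian clock. A gene counted as measured when the array annotation paired at least 1 probe set with that gene alone, and it was then represented by its probe set with the highest mean over all arrays. This held for 32 of the 34 genes, with 74 probe sets among them, out of 18193 genes and 45037 probe sets in all. Loxl2 was not measured, because both of its probe sets are shared with another gene, and Efemp2 was not listed in the annotation used here.

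The aorta came from male mice of a strain partially backcrossed onto C57Bl/6J, labelled BMAL+/+ (5 arrays, F01, F04, F07, F09 and F10) or BMAL-/- (4 arrays, F02, F03, F05 and F08), with 1 array per mouse sample and no age in the labels. Before sampling the animals were held for 2 weeks or more under 12 h of light a day and then for 30 h or more in darkness. They were sampled at ZT14, that is, 14 h on the scale of the former light cycle. They were perfused, and the vessel was taken from the arch to past the branching of the femoral arteries, so that each RNA holds intima, media, adventitia and attached tissue. The labels do not describe the BMAL-/- allele. They disagree on F01, whose title and strain say BMAL+/+ and whose source name says BMAL-/-, and it was kept in BMAL+/+.

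The arterial wall gets its recoil from elastic fibres, in which elastin is laid down on a scaffold of microfibrils with the help of fibulins and is then cross-linked by lysyl oxidases. Small leucine-rich proteoglycans bind collagen and set the width and spacing of its fibrils, and fibronectin, thrombospondins and tenascins are adhesive or matricellular proteins that cells lay down during growth and repair. Laminins, nidogen and perlecan form the basement membranes beneath the endothelium and around smooth muscle cells. In the normal vessel smooth muscle cells make most of the elastic fibre, and fibroblasts of the adventitia make much of the decorin and lumican.

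2 arrays stood with the other genotype at clock genes, and each comparison is therefore given for the 9 arrays and for the 7 arrays without F04 and F05. Nr1d2, a repressor of the REV-ERB family, ranged from 10.4 to 11.7 in BMAL+/+ without F04, which read 5.81, and from 5.08 to 5.89 in BMAL-/- without F05, which read 11.2. On the probe set used, Arntl itself read higher on F02, F03 and F08 than on F01, F07, F09 and F10, and the position of this probe set relative to the deletion was not known here. The direction of every difference therefore rests on the labels. Values are log2 expression as deposited, with array medians from 3.13 to 3.24, and readings between about 2 and 3 form a floor at which differences are not resolved. The 10 smooth muscle markers had a mean level from 9.77 to 11.39 on the 9 arrays, well above that floor.

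BMAL1 binds the E-box, the DNA letters CACGTG, so the promoters of the matrix genes are shown first. RefSeq promoters of the GRCm38.p6 assembly, each of 300 bases from 250 before to 50 after the transcript start, were found for 20 of the 34 genes, in 27 windows. Dcn, Fn1, Lum, Lama4, Eln and Lox are among the genes without a window, so their promoters were not searched. Windows of Efemp2, which was not measured, are among the 27. The E-box was present in 2 of these 27, against 7.15% of all 32851 promoters of this length, and both windows belong to Fbln1, overlap and hold the same E-box. Neither the ROR element (0.219% of all promoters) nor the CArG box bound by serum response factor (1.63%) was found in any of the 27 windows, both strands read. A match describes letters in this window and shows no binding. The 250 bases before a start are printed for Fbln1, which holds the E-box (capitals), and, without one, for Fbln2 and Vcan, whose groups did not overlap once F04 and F05 were left out. Efemp1, whose groups were also separate there and whose window holds no E-box, is not printed. The windows lie at chr15:85205699-85205948 (plus strand) for Fbln1, chr6:91212514-91212763 (plus strand) for Fbln2 and chr13:89742513-89742762 (minus strand) for Vcan.
Fbln1: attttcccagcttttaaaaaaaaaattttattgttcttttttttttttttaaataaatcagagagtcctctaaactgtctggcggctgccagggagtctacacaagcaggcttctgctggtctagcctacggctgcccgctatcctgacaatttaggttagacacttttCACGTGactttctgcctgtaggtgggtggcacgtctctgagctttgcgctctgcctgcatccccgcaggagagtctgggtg
Fbln2: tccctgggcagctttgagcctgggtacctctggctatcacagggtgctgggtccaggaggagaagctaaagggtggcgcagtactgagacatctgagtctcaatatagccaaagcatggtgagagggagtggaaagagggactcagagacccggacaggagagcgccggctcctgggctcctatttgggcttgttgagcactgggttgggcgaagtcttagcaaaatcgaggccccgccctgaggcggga
Vcan: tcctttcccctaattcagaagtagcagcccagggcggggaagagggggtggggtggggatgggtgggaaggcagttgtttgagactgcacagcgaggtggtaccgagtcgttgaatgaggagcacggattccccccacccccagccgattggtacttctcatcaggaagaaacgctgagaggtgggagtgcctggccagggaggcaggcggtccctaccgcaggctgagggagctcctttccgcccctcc
Of the 250 bases, G and C made up 46.4% for Fbln1, 58.8% for Fbln2 and 62.4% for Vcan.

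As labelled, no matrix gene passed. In limma, with Benjamini-Hochberg adjustment over all probe sets and a threshold of 0.05, the count was 0 of 32, beside 0.0% of all genes, and the smallest adjusted p of a member was 0.37. The plain F-test named in the design text also gave 0 members. Over all probe sets 0 passed, and 8.67% had an unadjusted p under 0.05. Dcn and Fbln2 had an unadjusted limma p under 0.05 and both read lower in BMAL-/-, which is 2 of 32 where 0.731% of all genes were lower at that p. On the probe sets used, none of the 32 was higher at it (6.52% of all genes). The differences from BMAL+/+ to BMAL-/- were below 0 for 24 genes and above 0 for 8, with a median of -0.33, while the median over all genes was 0.03 and 33.6% of them were below 0. Dim genes weigh on that background, and among the 6819 genes above the upper quartile of brightness, where 27 of the 32 members lie, 48.6% were below 0. Among those bright genes 0.895% were lower and 0.704% higher at an unadjusted p under 0.05. In no member did the groups separate, and among all genes they did so with BMAL-/- below for 0.165% and above for 0.561% (0.205% and 0.132% of the bright genes).

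Without F04 and F05 the matrix genes again gave no call, with 0 of 32 past the threshold beside 0.0165% of all genes, the 3 being Arntl, Npas2 and Nr1d2, and 0 of 32 by the plain F-test. Of the probe sets 0.00888% passed, and 23.7% had an unadjusted p under 0.05. An unadjusted limma p under 0.05 was reached by 10 members, all lower in BMAL-/-, namely Fbln1, Fbln2, Efemp1, Dcn, Bgn, Lum, Ogn, Vcan, Fn1 and Lama4. This is 31.2% of the 32, against 4.13% of all genes lower at that p, and 37.0% of the 27 bright members against 8.07% of bright genes. Such shares were not particular to the matrix. Also lower at that p were 4 of 10 smooth muscle, 4 of 8 fibroblast, 6 of 10 macrophage and 3 of 9 endothelial markers. So was 1 of 6 heart muscle markers, and none of the fat, skeletal muscle, cartilage or nerve markers. Among these lists 1 endothelial and 3 cartilage markers were higher. On the probe sets used, no member was higher at that p (18.2% of all and 8.67% of bright genes). The median difference was -0.69, against 0.04 over all genes, with 26 members below 0 and 6 above, where 31.9% of all and 47.3% of bright genes were below 0. The groups were separate with BMAL-/- below at 5 members, Fbln2, Efemp1, Dcn, Vcan and Fn1 (3.13% of all and 6.26% of bright genes), and with BMAL-/- above at none (14.4% and 7.64%). These 7 arrays were chosen because of the clock genes, the members were listed with earlier results of these data known, and both comparisons share 7 arrays.

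**Figure D1:**
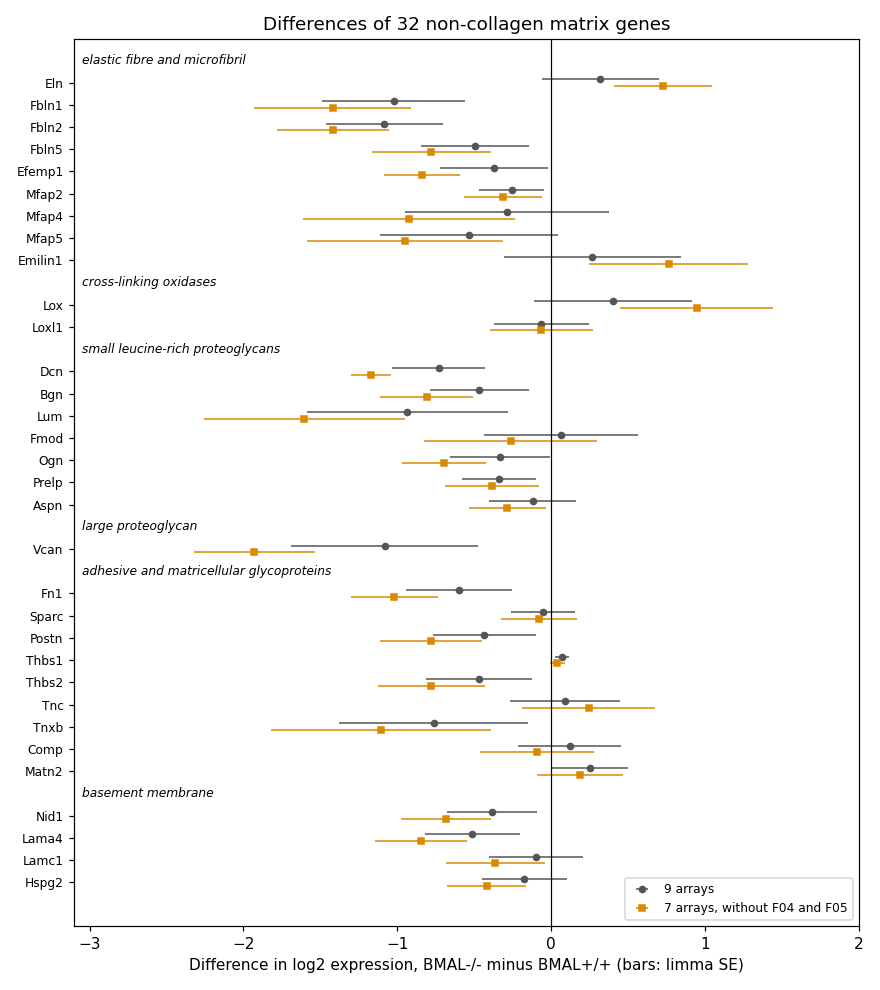
Differences in log2 expression (horizontal axis, BMAL-/- minus BMAL+/+) of the 32 measured matrix genes, grouped by role, for the 9 arrays (circles) and the 7 arrays without F04 and F05 (squares), with limma standard errors as bars. Of the squares, 26 lie left of 0, and Eln, Emilin1 and Lox lie farthest to the right at 0.73, 0.76 and 0.95.

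Decorin and its relatives, the small leucine-rich proteoglycans, lay on 1 side of 0 in all but a single value. All 7 were below 0 in the 7 arrays and 6 of 7 in the 9 arrays, with medians of -0.70 and -0.34. Single values follow the order F01, F04, F07, F09 and F10 for BMAL+/+ and F02, F03, F05 and F08 for BMAL-/-. Dcn read 12.39, 11.91, 12.56, 12.41 and 12.42 in BMAL+/+ and 11.18, 11.12, 12.61 and 11.51 in BMAL-/-. Dcn encodes decorin, which coats collagen fibrils and binds growth factors. The 4 BMAL+/+ arrays other than F04 lay between 12.39 and 12.56 and F02, F03 and F08 lay below them, while F05 read above every BMAL+/+ array and F04 below the other 4. This gave group means of 12.34 ± 0.25 (SD, n = 5) and 11.61 ± 0.69 (SD, n = 4), which in limma differ by -0.73 ± 0.30 (SE) at an adjusted p of 0.37. Without F04 and F05 the difference was -1.17 ± 0.13 (SE), at an adjusted p of 0.121. Its 7-array difference amounts to a level 2.25-fold lower, and its dim second probe set differed by -0.10 ± 0.06 (SE).

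Bgn read 13.23, 12.64, 13.34, 12.66 and 12.97 in BMAL+/+ and 11.77, 12.02, 13.29 and 12.93 in BMAL-/-. Bgn encodes biglycan, the closest relative of decorin, and here F02 and F03 lay below all other arrays while F08 lay among the BMAL+/+ arrays. BMAL+/+ and BMAL-/- averaged 12.97 ± 0.32 (SD, n = 5) and 12.50 ± 0.72 (SD, n = 4). They differed by -0.47 ± 0.32 (SE) in the 9 arrays and by -0.81 ± 0.31 (SE) in the 7, with limma adjusted p of 0.426 and 0.208. Both other probe sets gave the same sign, at -0.63 and -0.52 in the 7 arrays. Lum read 9.63, 8.83, 10.75, 10.28 and 10.33 in BMAL+/+ and 8.56, 7.25, 10.18 and 10.12 in BMAL-/-. Lum, lumican, lies next to Dcn on chromosome 10. As for Bgn, F02 and F03 were the lowest arrays and F08 lay within the BMAL+/+ range, whereas for Dcn F08 lay below that range. The means were 9.96 ± 0.75 (SD, n = 5) and 9.03 ± 1.41 (SD, n = 4), a difference of -0.93 ± 0.65 (SE) with a limma adjusted p of 0.428. Over 7 arrays limma gave -1.60 ± 0.65 (SE) at an adjusted p of 0.208.

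Ogn read 12.62, 11.93, 12.38, 11.75 and 12.13 in BMAL+/+ and 11.21, 11.35, 12.76 and 12.01 in BMAL-/-. Ogn encodes osteoglycin, or mimecan, and its F02 and F03 values were again the lowest of the 9. This gave group means of 12.16 ± 0.35 (SD, n = 5) and 11.83 ± 0.71 (SD, n = 4), which in limma differ by -0.33 ± 0.33 (SE) at an adjusted p of 0.565. Without F04 and F05 the difference was -0.70 ± 0.27 (SE), at an adjusted p of 0.208. Its second probe set differed more, from 10.37 in BMAL+/+ to 8.37 in BMAL-/- in the 7 arrays (SE of the difference 0.52). Between Ogn and Aspn, asporin, on chromosome 13 lies a single protein-coding gene, Omd, osteomodulin. Omd differed by -0.89 ± 0.19 (SE) in the 7 arrays with BMAL-/- below BMAL+/+, and by -0.55 in the 9. Aspn itself differed by -0.28 ± 0.25 (SE) in the 7 arrays and by -0.12 in the 9, and its other probe set by -0.99 ± 0.44 (SE) and -0.60 ± 0.43 (SE).

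Fmod and Prelp, fibromodulin and a proline- and arginine-rich relative, lie next to each other on chromosome 1. On the probe set used, neither reached an unadjusted limma p under 0.05. Fmod ranged from 9.74 on F09 to 11.82 on F05, differed by 0.07 ± 0.50 (SE) in the 9 arrays and by -0.26 ± 0.56 (SE) in the 7. Its 5 other probe sets were all below 0 in both, from -0.26 to -1.40 in the 7 arrays. The Fmod probe set at -1.40 had an unadjusted limma p of 0.0252 there, and its groups did not overlap. Prelp was nearly level in BMAL+/+ on the probe set used, at 10.06 ± 0.02 (SD, n = 5), and in BMAL-/- at 9.72 ± 0.57 (SD, n = 4), where F02 alone read 8.90. Without F02 its 7-array difference of -0.38 became 0.003. The other Prelp probe set was dimmer and not level, from 5.47 to 7.57 in BMAL+/+ and from 4.68 to 6.69 in BMAL-/-. It differed by -1.10 ± 0.59 (SE) in the 9 arrays and by -1.27 ± 0.68 (SE) in the 7.

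Vcan read 8.81, 6.41, 7.71, 7.72 and 7.43 in BMAL+/+ and 6.09, 5.44, 8.17 and 6.45 in BMAL-/-. Vcan encodes versican, the large hyaluronan-binding proteoglycan of the interstitial matrix, and its groups were separate once F04 and F05 were left out. F04 read as low as F08, and F05 read above 4 of the 5 BMAL+/+ arrays. BMAL+/+ and BMAL-/- averaged 7.62 ± 0.86 (SD, n = 5) and 6.54 ± 1.17 (SD, n = 4). They differed by -1.08 ± 0.61 (SE) in the 9 arrays and by -1.93 ± 0.39 (SE) in the 7, with limma adjusted p of 0.372 and 0.208. A second probe set above the median brightness differed by -1.42 ± 0.36 (SE) in the 7 arrays. The 6 others read between 2.08 and 2.80 on every array, at the floor, and differed by -0.01 to 0.06. Among them were probe sets higher in BMAL-/- in the 7 arrays at unadjusted limma p from 0.0278 to 0.0471, some with separate groups. Differences at this level are not resolved.

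**Figure D2:**
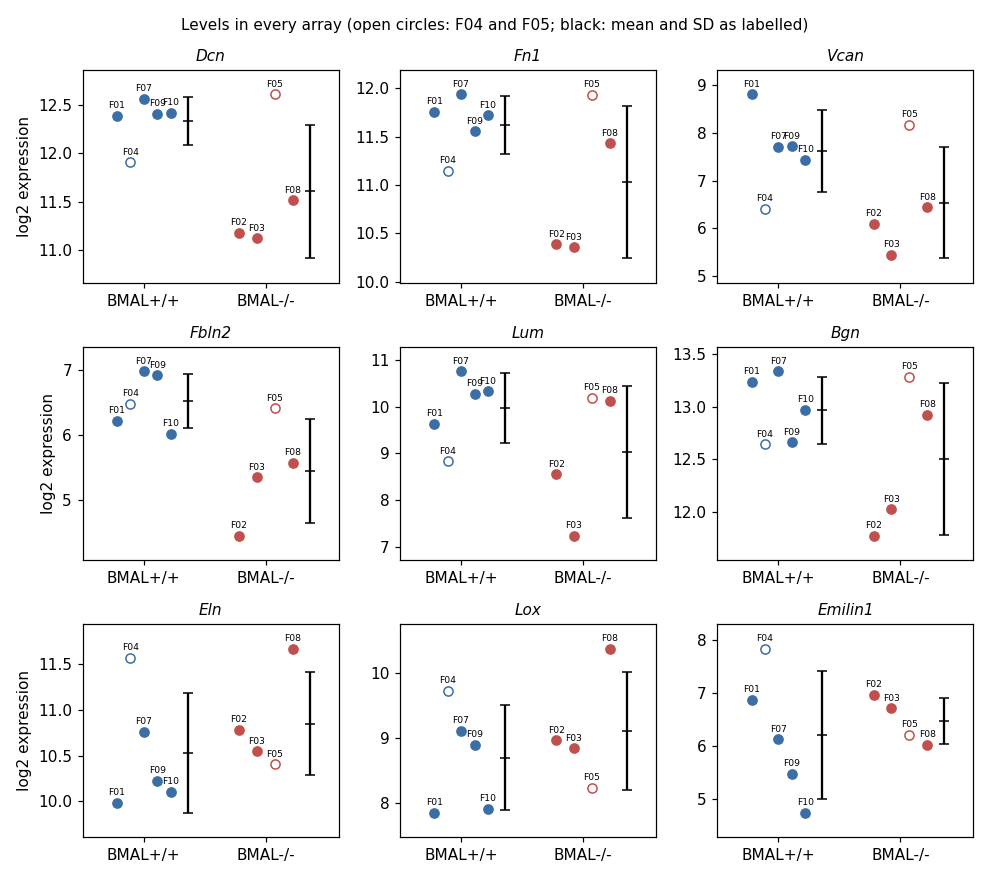
Log2 expression of 9 matrix genes in every array, by labelled genotype, with F04 and F05 as open circles and the mean and SD of the groups as labelled in black. For Dcn, Fn1, Vcan and Fbln2 the filled red points (F02, F03 and F08) lie below all filled blue points, whereas for Eln and Lox the highest points are F08 and F04.

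Elastic fibre genes did not move one way. Of 9 measured, 7 were below 0 and 2, Eln and Emilin1, above it in both comparisons, with medians of -0.37 (9 arrays) and -0.84 (7 arrays). Eln read 9.99, 11.57, 10.76, 10.22 and 10.10 in BMAL+/+ and 10.78, 10.55, 10.41 and 11.67 in BMAL-/-. Eln encodes elastin, and its highest readings were those of F08 and F04, one from each labelled group, while the other 7 arrays lay between 9.99 and 10.78. The means were 10.53 ± 0.65 (SD, n = 5) and 10.85 ± 0.57 (SD, n = 4), a difference of 0.32 ± 0.38 (SE) with a limma adjusted p of 0.628. Over 7 arrays limma gave 0.73 ± 0.32 (SE) at an adjusted p of 0.208. A second probe set gave 0.31 ± 0.62 (SE) in the 7 arrays. Emilin1, which joins elastin to the surrounding microfibrils and cells, had a BMAL+/+ range from 4.74 on F10 to 7.83 on F04 that held all 4 BMAL-/- arrays, and it differed by 0.27 ± 0.58 (SE) and 0.76 ± 0.51 (SE).

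The 4 measured fibulins, glycoproteins that help to place elastin, were all below 0 in both comparisons. Fbln2 read 6.22, 6.49, 6.98, 6.92 and 6.02 in BMAL+/+ and 4.45, 5.34, 6.42 and 5.57 in BMAL-/-. Fbln2 was below every BMAL+/+ array on F02, F03 and F08 and inside their range on F05. This gave group means of 6.53 ± 0.42 (SD, n = 5) and 5.44 ± 0.81 (SD, n = 4), which in limma differ by -1.08 ± 0.38 (SE) at an adjusted p of 0.37. Without F04 and F05 the difference was -1.42 ± 0.37 (SE), at an adjusted p of 0.208. Its other probe set lay near the floor, at means of 3.11 and 3.12 in the 7 arrays, and differed there by 0.01.

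Fbln1 read 6.32, 6.55, 7.63, 7.59 and 6.94 in BMAL+/+ and 5.05, 5.28, 6.83 and 6.77 in BMAL-/-. Fbln1, the gene with the E-box shown above, was lowest on F02 and F03, with F05 and F08 inside the BMAL+/+ range. BMAL+/+ and BMAL-/- averaged 7.01 ± 0.60 (SD, n = 5) and 5.98 ± 0.95 (SD, n = 4). They differed by -1.02 ± 0.47 (SE) in the 9 arrays and by -1.42 ± 0.51 (SE) in the 7, with limma adjusted p of 0.37 and 0.208. Its other probe sets had the same sign at -0.94 and -0.26 in the 7 arrays. Efemp1 read 9.55, 8.69, 9.79, 8.92 and 9.33 in BMAL+/+ and 8.22, 8.77, 9.86 and 8.68 in BMAL-/-. Efemp1 encodes fibulin-3, and F02, F03 and F08 read below F01, F07, F09 and F10, with F04 among the former and F05 above all arrays. The means were 9.26 ± 0.45 (SD, n = 5) and 8.88 ± 0.69 (SD, n = 4), a difference of -0.37 ± 0.35 (SE) with a limma adjusted p of 0.548. Over 7 arrays limma gave -0.84 ± 0.25 (SE) at an adjusted p of 0.208. Fbln5, which binds elastin directly, differed by -0.50 ± 0.35 (SE) and -0.78 ± 0.39 (SE), and only F02 and F03 lay below all BMAL+/+ arrays.

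Microfibril-associated genes varied widely among the BMAL-/- arrays. Mfap4 read 5.90 on F03 and 6.74 on F02 but 8.86 on F08, the highest of the 9, and differed by -0.29 ± 0.67 (SE) and -0.92 ± 0.69 (SE). Without F03 its 9-array difference was 0.26. Mfap5 behaved alike, from 6.90 on F03 to 9.64 on F08 in BMAL-/-, and differed by -0.53 ± 0.58 (SE) and -0.95 ± 0.64 (SE). Mfap2 read between 2.43 and 3.41, at or near the floor, so that its difference is not resolved.

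The cross-linking oxidases gave 1 gene on either side of 0. Lox read 7.85, 9.72, 9.11, 8.89 and 7.92 in BMAL+/+ and 8.97, 8.84, 8.24 and 10.37 in BMAL-/-. Lox encodes lysyl oxidase, which makes the cross-links of elastin and collagen, and as for Eln its highest readings were F08 and F04. This gave group means of 8.70 ± 0.80 (SD, n = 5) and 9.10 ± 0.90 (SD, n = 4), which in limma differ by 0.40 ± 0.52 (SE) at an adjusted p of 0.656. Without F04 and F05 the difference was 0.95 ± 0.50 (SE), at an adjusted p of 0.243. Its second bright probe set gave -0.06 ± 0.50 (SE) in the 9 arrays and 0.24 ± 0.60 (SE) in the 7. Loxl1 read 10.65, 10.90, 10.57, 9.83 and 9.96 in BMAL+/+ and 9.82, 9.90, 10.71 and 10.85 in BMAL-/-. Loxl1 acts on elastin, and its groups overlapped throughout. BMAL+/+ and BMAL-/- averaged 10.38 ± 0.46 (SD, n = 5) and 10.32 ± 0.54 (SD, n = 4). They differed by -0.06 ± 0.31 (SE) in the 9 arrays and by -0.06 ± 0.34 (SE) in the 7, with limma adjusted p of 0.918 and 0.909.

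Among the 9 adhesive and matricellular genes the medians were near 0, at -0.05 and -0.09, with 5 and 6 genes below it. Fn1 read 11.76, 11.15, 11.94, 11.55 and 11.72 in BMAL+/+ and 10.39, 10.36, 11.93 and 11.43 in BMAL-/-. Fn1 encodes fibronectin, through which cells grip the matrix, and F02 and F03 were the lowest of the 9 arrays. F08 was also below F01, F07, F09 and F10, F04 read lower than F08, and F05 lay near the top of the BMAL+/+ range. The means were 11.62 ± 0.30 (SD, n = 5) and 11.03 ± 0.79 (SD, n = 4), a difference of -0.60 ± 0.35 (SE) with a limma adjusted p of 0.375. Over 7 arrays limma gave -1.02 ± 0.28 (SE) at an adjusted p of 0.208. Its other probe set differed by -0.53 ± 0.33 (SE) in the 7 arrays. Postn read 12.43, 11.96, 12.97, 12.35 and 12.43 in BMAL+/+ and 11.48, 11.27, 12.68 and 12.55 in BMAL-/-. Postn, periostin, a collagen-binding protein of fibroblasts, had only F02 and F03 below the BMAL+/+ range. This gave group means of 12.43 ± 0.36 (SD, n = 5) and 11.99 ± 0.73 (SD, n = 4), which in limma differ by -0.43 ± 0.34 (SE) at an adjusted p of 0.466. Without F04 and F05 the difference was -0.78 ± 0.33 (SE), at an adjusted p of 0.208.

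Thbs2, thrombospondin-2, ranged from 3.98 on F03 to 5.78 on F05 and differed by -0.47 ± 0.35 (SE) and -0.78 ± 0.35 (SE). Thbs1 read between 2.51 and 2.71 on every array, at the floor, and is not resolved. Tnxb, tenascin-X, differed by -0.76 ± 0.62 (SE) and -1.11 ± 0.71 (SE), and F09 read 8.12 where the other BMAL+/+ arrays read 4.85 to 5.65. Tnc, tenascin-C, differed by 0.09 ± 0.36 (SE) and 0.24 ± 0.43 (SE), with its highest value, 7.90, on F08 and its lowest, 5.96, on F03. Its other, dimmer probe set differed more, by 0.595 ± 0.381 (SE) and 0.824 ± 0.415 (SE).

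Sparc, an acidic matrix protein that binds collagen, differed by -0.05 ± 0.21 (SE) and -0.08 ± 0.25 (SE) on its main probe set. A second, equally bright probe set spread far more, from 9.98 on F03 to 13.24 on F09, and differed by -1.34 ± 0.75 (SE) in the 7 arrays. Comp, a thrombospondin of cartilage, tendon and vessel wall, differed by 0.12 ± 0.34 (SE) and -0.09 ± 0.37 (SE). Matn2, matrilin-2, differed by 0.25 ± 0.25 (SE) and 0.19 ± 0.28 (SE), while its other probe set gave -0.39 and -0.61. The 8 cartilage markers had a mean between 2.74 and 2.89 on all 9 arrays, at the floor, beside these readings of Comp.

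All 4 basement membrane genes were below 0 in both comparisons, with medians of -0.28 and -0.55. Lama4 read 8.91, 8.46, 9.37, 9.20 and 8.91 in BMAL+/+ and 7.72, 8.12, 9.07 and 8.92 in BMAL-/-. Lama4 encodes the laminin alpha chain of endothelial and smooth muscle basement membranes, and F02 and F03 were lower than the other 7 arrays. BMAL+/+ and BMAL-/- averaged 8.97 ± 0.35 (SD, n = 5) and 8.46 ± 0.64 (SD, n = 4). They differed by -0.51 ± 0.31 (SE) in the 9 arrays and by -0.84 ± 0.30 (SE) in the 7, with limma adjusted p of 0.385 and 0.208. Nid1 read 9.26, 9.18, 10.06, 9.96 and 9.42 in BMAL+/+ and 8.77, 8.71, 9.80 and 9.50 in BMAL-/-. Nid1, nidogen-1, links laminin to collagen IV and had the same 2 arrays lowest. The means were 9.58 ± 0.41 (SD, n = 5) and 9.19 ± 0.54 (SD, n = 4), a difference of -0.38 ± 0.29 (SE) with a limma adjusted p of 0.461. Over 7 arrays limma gave -0.68 ± 0.29 (SE) at an adjusted p of 0.208. A second Nid1 probe set differed by -0.97 ± 0.62 (SE) in the 9 arrays and by -1.50 ± 0.69 (SE) in the 7. The dimmest Nid1 probe set differed by 0.14 ± 0.10 (SE) and 0.05 ± 0.10 (SE). Lamc1, the laminin gamma chain, differed by -0.10 ± 0.30 (SE) and -0.36 ± 0.32 (SE). Hspg2, perlecan, differed by -0.17 ± 0.28 (SE) and -0.42 ± 0.26 (SE). Its other probe set read higher in BMAL-/-, by 0.45 ± 0.20 (SE) and 0.55 ± 0.21 (SE), with unadjusted limma p of 0.0464 and 0.0354.

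The spread within BMAL-/- followed single arrays. F02 or F03 was the lowest of the 9 arrays at 22 of the 32 genes, whereas F02 was lowest at 13.7% and F03 at 11.8% of all genes above the median brightness. F05 or F07 was the highest at 22 genes, against 13.4% of the same bright genes. F08 read above both F02 and F03 at 25 genes (29.1% of the bright genes). It lay within the range of F01, F07, F09 and F10 at 20 (66.2%), below it at 6 (16.8%) and above it at 6 (17.0%). F02 lay below that range at 20 genes (24.1%) and F03 at 22 (24.2%). F05 lay below it at 1 gene only, Prelp (13.9%), within it at 21 (64.5%) and above it at 10 (21.6%). F04 lay below it at 13 genes (20.1%), within it at 14 (45.8%) and above it at 5 (34.1%), the last being Eln, Emilin1, Lox, Loxl1 and Tnc.

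**Figure D3:**
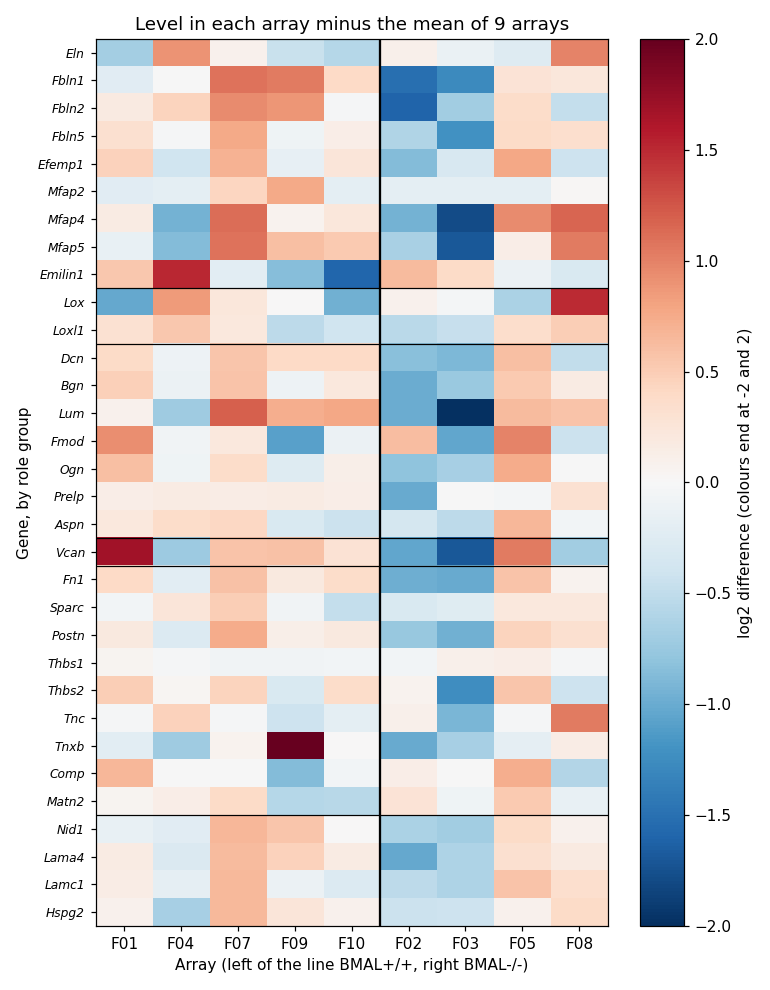
Level of each matrix gene (rows, by role group) on each array (columns, BMAL+/+ left of the vertical line) minus the gene's mean over 9 arrays, in log2 units, with blue for lower and red for higher. F02 and F03 are blue at most genes, F05 and F07 red, and F04 and F08 are red at Eln and Lox.

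Leaving out F08 shows how much the calls rest on 1 array. With 4 BMAL+/+ arrays against F02 and F03 alone, 14 of the 32 members passed in limma at an adjusted p under 0.05, all lower in BMAL-/-, where 3.91% of all genes were called lower and 27.4% higher. Of bright genes 8.11% were called lower, and of all probe sets 36.5% passed in either direction. They were Fbln1, Fbln2, Fbln5, Mfap4, Mfap5, Dcn, Bgn, Lum, Ogn, Vcan, Fn1, Postn, Lama4 and Hspg2. Leaving out F01, F02, F03, F07, F09 or F10 instead gave 0 members past the threshold, and the count lower at an unadjusted p under 0.05 then lay between 5 and 9, where 2.30% to 4.18% of all genes and 4.44% to 7.89% of bright genes were lower at it. Without F02 it was 6, without F03 5 and without F07 5, against 10 with all 7 arrays. In the 9 arrays the count of 2 became 10 without F05, with 2.58% of all and 5.02% of bright genes lower, and 1 without F02, F03, F07, F09 or F10, with 0.374% to 0.467% of all genes.

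The mean levels of the smooth muscle and fibroblast marker lists were low on F02 and F03 as well. Not every marker followed its list: Des was lowest on F01, and Lmod1 and Mylk were lowest on F09. Among fibroblast markers Pdgfra and Pdgfrb were lowest on F09, Pi16 and Clec3b were lowest on F04, and Thy1 was highest on F02. The 10 smooth muscle markers had means of 9.93 on F02 and 9.77 on F03, against 10.36 to 11.39 on all other arrays, and all 10 were below 0 in both comparisons. The 8 measured fibroblast markers had means of 8.22 on F02, 7.82 on F03 and 8.20 on F04, against 8.77 to 9.40 elsewhere, and 5 of 8 (9 arrays) and 6 of 8 (7 arrays) were below 0. All 10 macrophage markers were below 0 in both, with list means from 6.65 to 8.43 in BMAL+/+ and from 6.03 to 7.55 in BMAL-/-. Here F03 was lowest, and F02 at 6.83 read above F04 at 6.65 and F08 at 6.68. In a whole vessel, fewer cells of a type and less RNA per cell cannot be told apart.

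Attached tissue also differed between arrays. The 7 skeletal muscle markers had a mean of 4.04 on F01 and of 7.09 to 11.12 on the others, and the 6 heart muscle markers one from 5.47 on F02 to 10.62 on F09. All 7 skeletal muscle markers were above 0 in both comparisons, with medians of 0.75 and 1.37. Of the heart muscle markers 5 of 6 in the 9 arrays and 6 of 6 in the 7 were below 0, with medians of -0.98 and -1.99. F02 and F03 had the highest array medians, 3.24 each, against 3.13 to 3.17 on the rest. The 9 endothelial markers had means from 6.51 to 6.90 in BMAL+/+ and from 6.07 to 6.58 in BMAL-/-. The mean of the 5 fat markers ranged from 11.7 to 12.7 and that of the 4 nerve and Schwann cell markers from 5.33 to 6.17 over the 9 arrays. The part of these lists and of the array medians in the matrix differences was not tested.

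**Figure D4:**
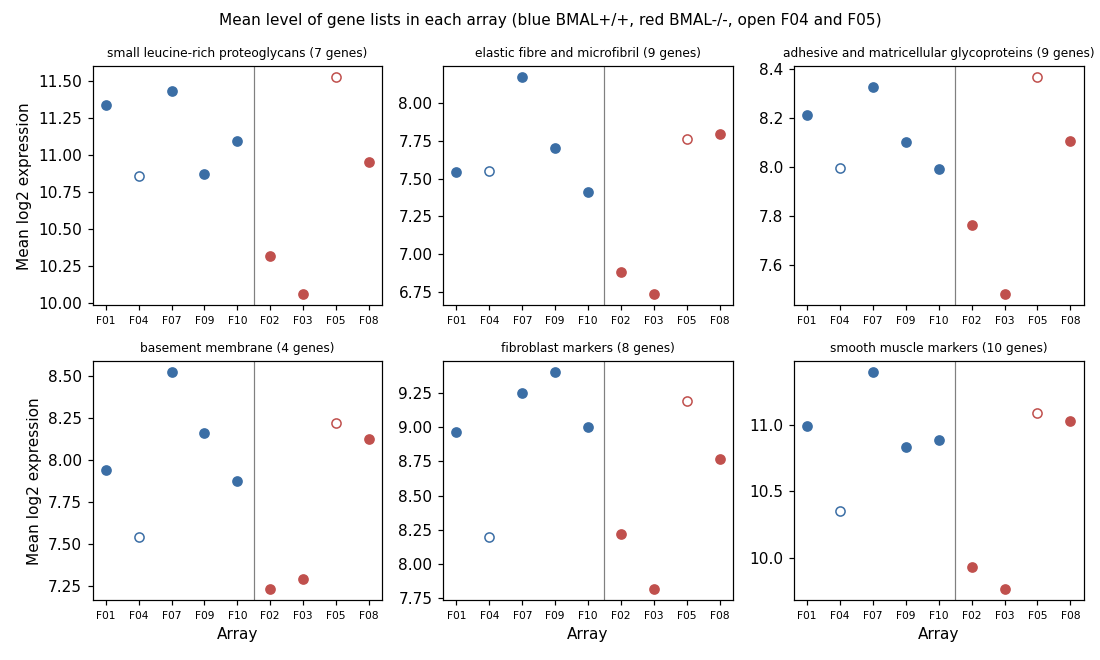
Mean log2 expression on each array (horizontal axis) of 4 matrix role groups and of the fibroblast and smooth muscle markers, with F04 and F05 as open circles. In each panel F02 or F03 is the lowest point, at 10.32 and 10.06 for the small leucine-rich proteoglycans and at 9.93 and 9.77 for the smooth muscle markers.

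The wider matrix was read from 2 further lists. Of 46 other matrix genes, 44 were measured, and none passed in either comparison. Their medians were -0.08 and -0.27, and at an unadjusted limma p under 0.05 there were 0 in the 9 arrays. In the 7 arrays 13 were lower at it (29.5%, against 4.13% of all and 8.07% of bright genes) and 5 higher (against 18.2% and 8.67%). The groups were separate there with BMAL-/- below at 11 (3.13% of all and 6.26% of bright genes) and above at 3 (14.4% and 7.64%). The 4 with the smallest p in the 7 arrays were Dpt, dermatopontin, which binds decorin (-1.89 ± 0.39, SE), Omd, Spon1, the adhesion protein spondin-1 (-1.33 ± 0.33, SE), and Ecm1 (-1.14 ± 0.29, SE), each at an adjusted p of 0.208. Dpt is also one of the fibroblast markers.

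The 24 matrix receptors had medians of -0.04 and -0.08, with 12 and 13 below 0, and none passed. At an unadjusted limma p under 0.05 none was lower and 1, Itga5, was higher in the 9 arrays (0.731% and 6.52% of all genes). In the 7 arrays 2 of 24 were lower (8.33%, against 4.13% of all and 8.07% of bright genes) and 3 higher (against 18.2% and 8.67%), which is near the background. The 4 with the smallest p follow, each with separate groups in the 7 arrays, as were 3.13% of all genes with BMAL-/- below and 14.4% above. Itga6, an integrin that binds laminin, read higher in BMAL-/- by 0.82 ± 0.23 (SE). Itga5, the fibronectin-binding integrin chain, was higher by 0.22 ± 0.07 (SE) at a low level of 3.68 and 3.90. Itgb8, an integrin chain that frees latent TGF-beta, and Sdc2, a heparan sulfate proteoglycan of the cell surface, differed by -0.50 ± 0.18 (SE) and -0.72 ± 0.27 (SE). Each of these 4 had an adjusted p of 0.208.

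Probe sets of 1 gene did not always tell the same story. Of the 32 genes, 26 had more than 1 probe set, and at 11 of them in the 9 arrays and 9 in the 7 arrays some probe set had the sign opposite to the one used. Counting only probe sets above the median brightness, this held for 6 of 19 genes in the 9 arrays (Lox, Fmod, Sparc, Matn2, Nid1 and Hspg2) and for 5 of 19 in the 7 (Loxl1, Sparc, Matn2, Nid1 and Hspg2).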

How the data were processed

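Each of the 9 aorta RNA samples was hybridised to 1 Affymetrix mouse array. The deposited table holds log2 expression values. GCRMA and MAS5 appear in the submitters' processing notes with no role or version. The background, normalization and summary settings, and any detection flags, are not given in the sources used here. The values have a floor at which dim genes vary little, so small shifts there can look precise. Precision is limited by the number of arrays. The design text calls the arrays of a genotype biological replicates.

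The 64 control probe sets were left out. Of the other 45037, the platform annotation assigns 34945 to a single gene and 932 to more than 1, and 9160 are unnamed here. Symbols were updated by gene identifier to GRCm38.p6 RefSeq names (34741 matched). Genotype was tested for every probe set in limma 3.58.1, run in R 4.3.3 (lmFit, eBayes with a mean-variance trend, 1.76 prior degrees of freedom), two-sided, with Benjamini-Hochberg adjustment over all probe sets at 0.05. Each difference is the BMAL-/- mean less the BMAL+/+ mean. The groups share no replicate numbers. Brightness is the mean over 9 arrays, with a median of 3.19 and an upper quartile of 5.93 over the probe sets. Scripts were tested on simulated data, and plots were drawn with matplotlib 3.10.9.

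Genes given on every array are those with an unadjusted p under 0.05 in either comparison, the brightest and the smallest p of each role group, Eln and Fn1. From the other matrix and receptor lists the text names the 4 with the smallest p in the 7 arrays. The members, lists and the 7-array comparison were chosen with earlier results of these data known. Alternatives were quantile normalization, centring, no variance trend, the one-way ANOVA of the design text, a filter on dim probe sets, F01 in BMAL-/-, averaging all probe sets of a gene, and leaving out each array. The planned comparison of protein sequences was not run, because no protein sequences were used here.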

Additional observations from a re-analysis of the deposited data

Results flagged for a closer look

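In 64 groups of arrays (32 genes, 2 genotypes), 3 held an array whose gap to its nearest neighbour took up more of the group's range than Dixon's 95% critical value for 4 or 5 arrays allows. Chance gives about 1 such group in 20. Dcn on F04 read 11.91, below the 12.39 to 12.56 of the other BMAL+/+ arrays. Tnxb on F09 read 8.12, above the 4.85 to 5.65 of the others in BMAL+/+. Mfap2 on F08 read 2.68, above the 2.45 to 2.46 of the others in BMAL-/-, near the floor.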

How the results depend on the processing

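For the 9 arrays, 0 probe sets and 0 matrix genes passed under every alternative run. The count of genes lower at an unadjusted p under 0.05 (2) was 1 with the ANOVA F-test (0.649% of all genes). It was 1 to 10 when single arrays were left out (0.374% to 2.58% of all genes). With F01 in BMAL-/- 1 gene was higher (1.12% of all and 1.57% of bright genes). Genes with separate groups (0) numbered 0 to 2 when single arrays were left out (2 without F05, all lower, beside 1.36% of all genes). The median difference kept its sign, from -0.14 to -0.61 there. For the 7 arrays, 4 probe sets passed, 2 with F01 in BMAL-/-, 2 after quantile normalization and 2 to 16445 when single arrays were left out. Matrix genes past the threshold (0) then numbered 0 to 14. Those lower at an unadjusted limma p under 0.05 (10) numbered 5 to 16 (2.30% to 6.40% of all genes) and those higher (0) 0 to 2 (3.99% to 34.8%). In these runs the groups were separate with BMAL-/- below (5) at 5 to 19 (3.54% to 9.11% of all genes). They were separate with BMAL-/- above (0) at 0 to 2 (15.5% to 44.0%), the 2 without F03. The 19, all lower, arose without F08, where 9.11% of all genes and 18.3% of bright genes were separate with BMAL-/- below. The 10 lower genes became 5 with F01 in BMAL-/- (3.86% of all and 6.79% of bright genes) and 6 with the ANOVA F-test (3.03% and 6.23%). They became 7 after quantile normalization (4.33% and 6.06%) and 9 with no variance trend (4.28% and 8.62%). With F01 in BMAL-/- and after quantile normalization 1 gene was higher, beside 6.09% and 9.33% of all genes (12.2% and 11.4% of bright genes). The median stayed between -0.37 and -0.87.

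Some differences changed sign. In the 9 arrays these were Lox (-0.057) and Loxl1 (0.072) with F01 in BMAL-/-, and Fmod (-0.194), Matn2 (-0.069) and Hspg2 (0.140) when probe sets were averaged. In the 7 arrays they were Loxl1 (0.186), Fmod (0.353) and Comp (0.359) with F01 in BMAL-/-, Thbs1 (-0.014) after centring, Matn2 (-0.212) and Hspg2 (0.067) when probe sets were averaged, and Loxl1 (0.003), Thbs1 (-0.010) and Comp (0.001) after quantile normalization. When single arrays were left out of the 9, Loxl1 ranged from -0.239 to 0.105, Fmod from -0.252 to 0.426, Sparc from -0.180 to 0.062, Lamc1 from -0.306 to 0.088, Mfap4 from -0.726 to 0.260, Aspn from -0.363 to 0.032, Comp from -0.101 to 0.337, Lox from -0.018 to 0.690, Tnc from -0.237 to 0.412 and Emilin1 from -0.098 to 0.675. Out of the 7, Loxl1 ranged from -0.393 to 0.122, Fmod from -0.715 to 0.119, Comp from -0.355 to 0.154, Prelp from -0.658 to 0.003, Sparc from -0.242 to 0.093, Thbs1 from -0.006 to 0.073 and Tnc from -0.236 to 0.738. The cause of these changes was not tested. Of the 32 genes, 20 in the 9 arrays and 23 in the 7 kept their direction under all alternatives run. Calls in the 7 arrays rest on which array is left out: the 16445 probe sets and 14 genes arose without F08. No paired analysis was possible because the groups share no replicate numbers.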
